A study of Mus musculus with 24 samples.

Results

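Aminoacyl-tRNA synthetases are the enzymes that join each amino acid to its tRNA. The 35 genes described here are 20 cytosolic and 15 mitochondrial enzymes, the second class having names that end in 2, out of 16463 genes tested. They were chosen by name, over all probes that read them, and all 35 passed the filter on dim probes (at least 1 probe well above background on 3 of the 4 arrays of a group). The arrays carried 28 of the 35 names in the files themselves. The other 7 (Aars2, Cars2, Ears2, Farsa, Farsb, Rars2 and Vars) were found under older names through their accessions or synonyms. In the files the name Vars2 belonged to probes of cytosolic Vars, and the name Hars2 to a probe of Dtd1, which removes D-amino acids from tRNA and is no synthetase, so both were reassigned before any value was computed. After this, 70 probes read the 35 genes, 68 of them were kept, and 20 genes had more than 1 kept probe. The brightest kept probe of a gene gave its value.

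The cytosolic enzymes charge the tRNAs that the ribosomes of the cytosol use, and several of them sit in a multisynthetase complex held together by scaffold proteins. The mitochondrial enzymes are also encoded in the nucleus, are imported, and serve only the few proteins that mitochondrial DNA encodes. Gars and Kars each encode both the cytosolic and the mitochondrial enzyme of their amino acid. They were counted in the cytosolic class only, so that class is not purely cytosolic. Neither gene enters the pairs of cytosolic and mitochondrial enzymes compared below. Activation of a resting T cell through its receptor starts growth and protein synthesis, and cytosolic synthetase genes are known targets of ATF4, a transcription factor of the amino acid response.

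The study compared sorted CD4 T cells of Trim28 conditional knockout (CKO) mice, which lack Trim28 in T cells, with those of age-matched wild type (WT) mice on 24 Agilent arrays. Trim28 is a corepressor recruited to chromatin by zinc finger proteins of the KRAB family. Each of the 6 groups had 4 arrays: CKO and WT regulatory T cells (Treg), CKO and WT naive cells stimulated for 13 h by plate-coated antibodies to CD3 and CD28, and CKO and WT naive cells left unstimulated. All mice were female C57BL/6 aged 6 or 7 weeks, and the Cre line is not given in the sources used here. Naive cells were sorted by the labels as CD4+ CD62+ CD25- and Treg as CD4+ CD62+ CD25+. The treatment label of the CKO Treg samples reads stimulated and that of the WT Treg samples unstimulated, whereas the design text speaks of stimulating naive cells only, so stimulation and genotype cannot be told apart in the Treg comparison if the label holds. The labels do not say that the 4 arrays of a group came from separate animals, so p-values here reflect only how far these samples vary, which may be technical.

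Levels below are log2 signals relative to the 75th percentile of the same array, and differences are log2 differences with their standard error (SE) from 1 limma fit over all 24 arrays. A gene was called when its Benjamini-Hochberg adjusted p over all genes was below 0.05. The 75th percentile signal ranged from 160 to 382 on naive arrays, 32.6 to 119 on CKO Treg arrays and 55.6 to 208 on WT Treg arrays, so most Treg arrays were dimmer than the naive arrays, CKO Treg replicate 1 the most. Trim28 averaged 0.39 ± 0.24, 0.93 ± 0.31 and 0.89 ± 0.29 in CKO Treg, CKO stimulated and CKO unstimulated cells, and 1.95 ± 0.19, 3.61 ± 0.21 and 2.41 ± 0.10 in the WT counterparts (SD, n = 4 each). All 5 T cell markers were well above background on at least 3 of 4 arrays of every group. The sum of their linear levels was 176 to 212 in CKO and 256 to 301 in WT unstimulated cells. It was 306 to 454 in CKO and 424 to 480 in WT stimulated cells, and 159 to 198 in CKO and 208 to 231 in WT Treg. The summed linear level of 4 Treg markers was 30.8 to 38.6 on Treg arrays against 0.560 to 11.8 on naive arrays. That of 5 activated T cell markers was 26.0 to 33.3 in CKO Treg and 26.1 to 33.4 in WT Treg. It was 67.8 to 79.0 in CKO stimulated and 73.1 to 92.2 in WT stimulated cells. In unstimulated cells it was 26.57 to 33.91 in CKO and 30.65 to 37.61 in WT. Cd69 of this list was not higher in stimulated than in unstimulated cells of either genotype. Whether the CKO Treg had been stimulated was not tested. The sum of the 6 B cell markers measured of 7 was 13.9 to 47.7 in CKO unstimulated, 5.45 to 21.2 in WT unstimulated, 1.30 to 5.25 in CKO stimulated and 0.392 to 1.85 in WT stimulated cells, and 3.44 to 9.78 on Treg arrays. In whole sorted populations, fewer cells of a type and less RNA per cell cannot be told apart.

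Stimulation raised the cytosolic class as a whole, while the mitochondrial class split. In CKO naive cells 18 of 20 cytosolic genes rose and none fell, and in WT naive cells all 20 rose, against 60.3% of all genes called in CKO and 61.9% in WT, in either direction. Genes called higher alone were 30.0% of all genes in CKO and 31.8% in WT. The median difference of the cytosolic genes was 1.52 in both genotypes. Of the 15 mitochondrial genes 8 rose and 1 fell in CKO, with a median of 0.28, and 7 rose and 1 fell in WT, with a median of 0.29. Genes called lower were 30.3% of all genes in CKO and 30.1% in WT. Stimulated and unstimulated arrays did not overlap for 18 of 20 cytosolic and 9 of 15 mitochondrial genes in CKO and for 18 and 8 in WT, against 56.9% of all genes in CKO and 55.1% in WT. The median over all genes was -0.07 in CKO and -0.02 in WT. When arrays were instead scaled on 1000 probes that were bright on every array, the median of all genes moved to -0.33 in CKO and -0.42 in WT, that of the cytosolic class to 1.26 and 1.12, and that of the mitochondrial class to 0.02 and -0.11, so the sign of the last in WT depended on the scaling. Markers of other cells were lower after stimulation, as the B cell sums above show. The sum of 6 myeloid and dendritic markers was 0.210 to 0.509 in CKO stimulated against 1.78 to 4.52 in CKO unstimulated cells, and 0.198 to 0.238 in WT stimulated against 1.48 to 3.77 in WT unstimulated cells. That of 5 CD8 and NK markers was 6.47 to 10.1 against 14.5 to 28.5 in CKO and 5.49 to 8.81 against 11.1 to 18.6 in WT. The 2 erythroid markers measured of 4 summed to 0.0534 to 0.247 against 0.185 to 14.4 in CKO and 0.0394 to 0.139 against 0.244 to 17.4 in WT. The part of these cells in the stimulation differences was not tested.

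The array by array view gave the same separation. Relative to the mean of the WT unstimulated arrays, the median cytosolic gene lay 1.19 to 1.39 higher on the 4 CKO stimulated arrays and 1.40 to 1.62 higher on the 4 WT stimulated arrays. The median mitochondrial gene lay 0.18 to 0.31 higher on the CKO stimulated arrays and 0.32 to 0.58 higher on the WT stimulated arrays. On all 8 stimulated arrays the cytosolic median was thus above the mitochondrial one. Within the 2 slides that held both states, the cytosolic median difference was 1.36 and 1.47 in CKO and 1.48 and 1.60 in WT, and the mitochondrial one 0.49 and 0.47 in CKO and 0.46 and 0.54 in WT.

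**Figure D1:**
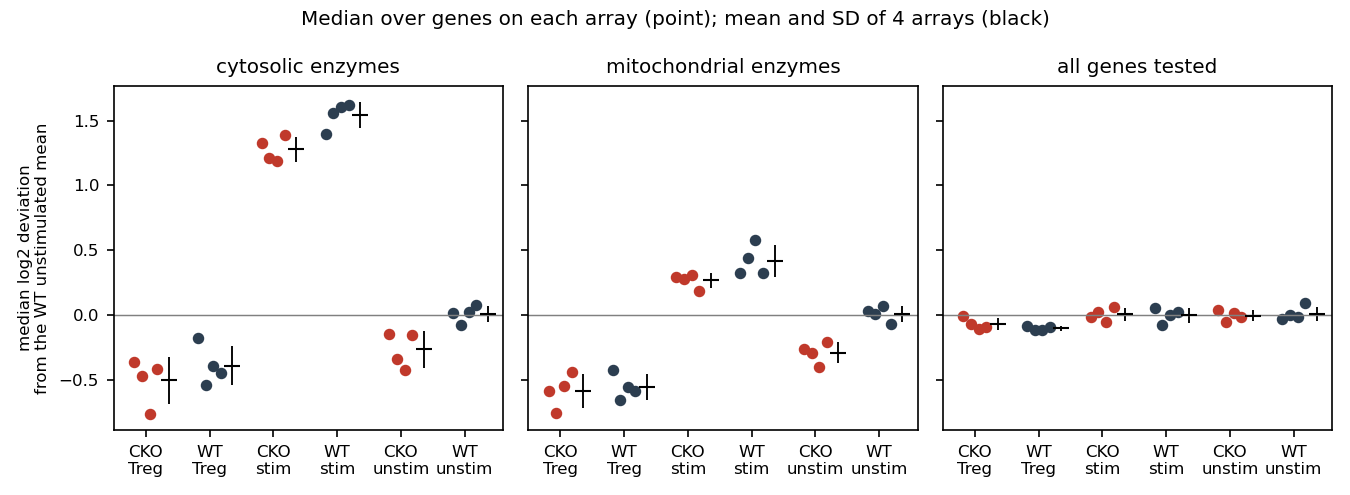
Median log2 deviation of the 20 cytosolic enzymes, the 15 mitochondrial enzymes and all genes tested from their mean on the WT unstimulated arrays, for each array (points, CKO red and WT dark; black, mean and SD of 4 arrays). The cytosolic medians reach 1.19 to 1.62 on stimulated arrays and the mitochondrial ones 0.18 to 0.58. With scaling on bright shared probes the mitochondrial median difference in WT is -0.11 instead of 0.29.

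Set side by side for the same amino acid, the cytosolic enzyme rose more than its mitochondrial partner in most pairs. Each of the 15 mitochondrial enzymes was paired with the cytosolic enzyme of its amino acid (Farsa for Fars2, and Eprs, which charges both glutamate and proline tRNA, for Ears2 and Pars2). The difference of the cytosolic gene exceeded that of the mitochondrial gene in 12 of 15 pairs in CKO cells and in 13 of 15 in WT cells, by a median of 1.15 and 1.36. On single stimulated arrays the cytosolic gene was ahead in 11 to 14 of the 15 pairs in either genotype. No p-value is given, since the genes of a class are not replicates of it. Hars and Hars2 are neighbours on chromosome 18 and differed in this way on the probes used. Hars rose by 1.47 ± 0.20 in CKO and 1.90 ± 0.20 in WT. Hars2 rose by 0.66 ± 0.17 in CKO, while its difference in WT was 0.29 ± 0.17 and was not called (limma, adjusted p = 0.141). A second Hars probe, well above background on all 24 arrays, did not show the rise. It read -0.25 in CKO and -0.35 in WT, neither of them called.

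**Figure D2:**
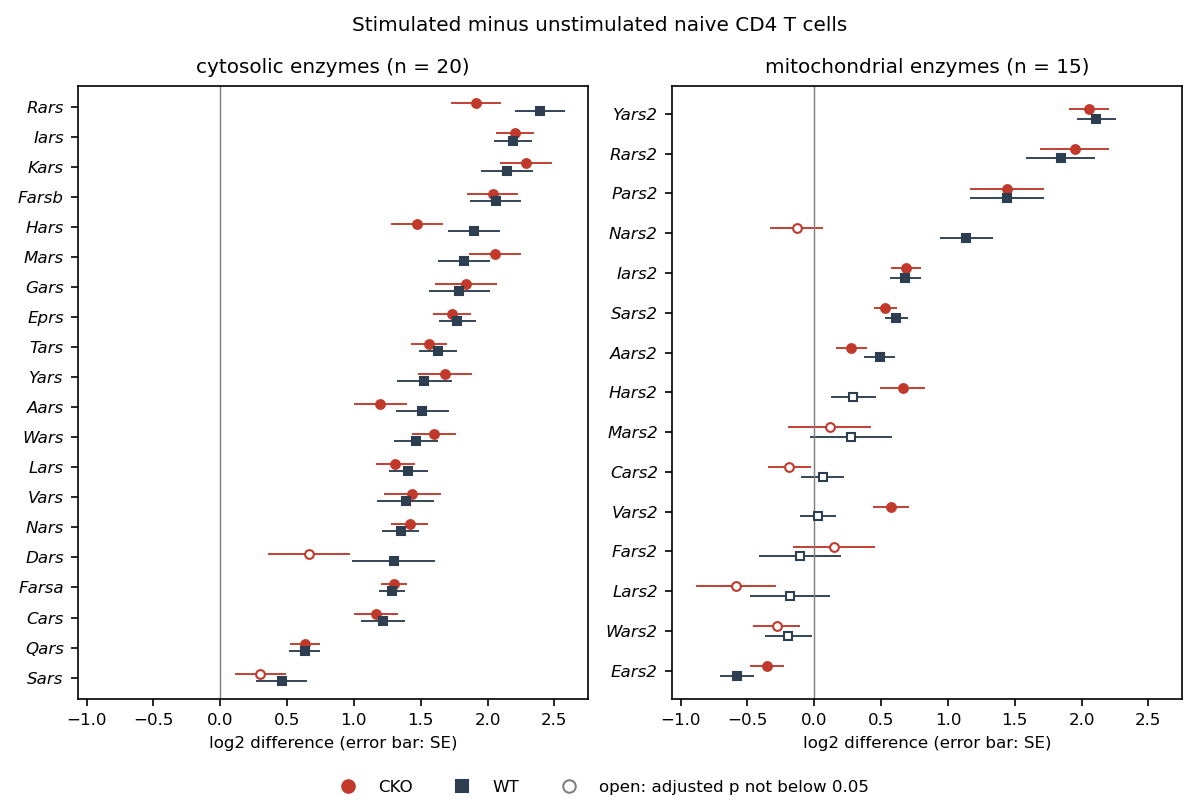
Log2 difference of stimulated minus unstimulated naive cells for each gene, CKO (red circles) and WT (dark squares), with SE; open symbols were not called. Cytosolic values run from 0.30 to 2.39, and mitochondrial values from -0.59 to 2.11, with Yars2, Rars2 and Pars2 at the top.

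Among the cytosolic enzymes the largest differences were those of Rars, Iars, Kars, Farsb and Hars in WT cells and of Kars, Iars, Mars and Farsb in CKO cells. Rars, the arginyl enzyme, had levels of 0.46, 0.59, 0.41 and 0.88 in CKO stimulated cells against -1.15, -1.34, -1.31 and -1.51 in CKO unstimulated cells. In WT its levels were 1.62, 0.97, 0.74 and 0.85 in stimulated against -1.49, -1.42, -1.55 and -0.91 in unstimulated cells. The states did not overlap in either genotype, and the difference was 1.91 ± 0.19 in CKO and 2.39 ± 0.19 in WT (limma, adjusted p = 1.98e-08 and 5.09e-10), a 5.24-fold rise in WT. Iars, the isoleucyl enzyme, had 3.87, 3.84, 3.88 and 3.64 in CKO stimulated against 1.71, 1.73, 1.36 and 1.60 in CKO unstimulated cells. In WT it had 4.08, 4.37, 4.42 and 4.25 in stimulated against 2.39, 1.83, 2.27 and 1.86 in unstimulated cells. Every stimulated array lay more than a unit above every unstimulated array of its genotype, and the rise was 4.62-fold in CKO and 4.57-fold in WT.

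Kars, the lysyl enzyme, had 3.92, 3.66, 3.65 and 3.55 in CKO stimulated against 1.20, 1.25, 1.25 and 1.93 in CKO unstimulated cells, a rise of 2.29 ± 0.19. In WT it had 3.84, 4.44, 4.24 and 4.17 in stimulated against 2.03, 2.23, 2.09 and 1.76 in unstimulated cells, a rise of 2.15 ± 0.19. The CKO unstimulated arrays held 1 value, on replicate 4, well above the other 3, and still below all stimulated arrays. Farsb is the beta subunit of the phenylalanyl enzyme, which works as a tetramer with Farsa. It had 0.23, 0.20, 0.66 and 0.17 in CKO stimulated against -1.67, -1.77, -1.96 and -1.50 in CKO unstimulated cells, and 0.62, 1.20, 0.92 and 0.60 in WT stimulated against -1.17, -0.92, -1.01 and -1.80 in WT unstimulated cells. The states were apart in both genotypes, with rises of 2.04 ± 0.19 and 2.06 ± 0.19, while Farsa rose by 1.30 ± 0.10 and 1.29 ± 0.10. Mars, the methionyl enzyme, had 2.60, 2.44, 2.52 and 2.15 in CKO stimulated against 0.71, 0.50, 0.05 and 0.24 in CKO unstimulated cells. In WT it had 2.80, 3.20, 3.05 and 2.78 in stimulated against 1.32, 1.10, 1.31 and 0.81 in unstimulated cells. The states did not overlap, and Mars rose 4.16-fold in CKO and 3.54-fold in WT. Hars, the histidyl enzyme, had 3.16, 3.12, 2.67 and 3.47 in CKO stimulated against 1.97, 1.51, 1.57 and 1.50 in CKO unstimulated cells, and 3.91, 3.37, 3.15 and 3.30 in WT stimulated against 1.47, 1.51, 1.30 and 1.87 in WT unstimulated cells, with no overlap of states.

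The smallest cytosolic differences were those of Sars and Qars. Sars, the seryl enzyme, had 5.44, 5.55, 5.07 and 6.01 in CKO stimulated against 5.48, 4.90, 5.08 and 5.40 in CKO unstimulated cells. In WT it had 5.94, 5.37, 5.60 and 5.83 in stimulated against 5.13, 5.08, 5.05 and 5.63 in unstimulated cells. The states overlapped in both genotypes, and the difference was 0.30 ± 0.19 in CKO, which was not called (limma, adjusted p = 0.182), and 0.46 ± 0.19 in WT, which was (adjusted p = 0.0422). Qars, the glutaminyl enzyme, had 5.02, 5.07, 4.91 and 5.23 in CKO stimulated against 4.47, 4.33, 4.41 and 4.48 in CKO unstimulated cells, and 5.19, 5.19, 5.35 and 5.26 in WT stimulated against 4.44, 4.70, 4.60 and 4.73 in WT unstimulated cells. Here the states did not overlap, and the rise was 1.55-fold in CKO and 1.55-fold in WT. Dars, the aspartyl enzyme, was the other gene not called in CKO, with a difference of 0.67 ± 0.31 (adjusted p = 0.0672), against 1.30 ± 0.31 in WT, and its states overlapped in both genotypes. The remaining 11 cytosolic genes (Aars, Cars, Eprs, Farsa, Gars, Lars, Nars, Tars, Vars, Wars and Yars) rose in both genotypes, from 1.17 for Cars to 1.84 for Gars in CKO and from 1.22 for Cars to 1.79 for Gars in WT. The fit dropped WT stimulated replicate 1 for Tars, where its spot was flagged as an outlier, so Tars rested on 3 arrays in that group.

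Yars2 and Rars2 stood out among the mitochondrial enzymes. Yars2, the mitochondrial tyrosyl enzyme, had 2.21, 2.00, 2.16 and 2.09 in CKO stimulated against 0.17, -0.00, 0.04 and 0.02 in CKO unstimulated cells. In WT it had 2.78, 2.86, 2.93 and 2.53 in stimulated against 0.63, 0.91, 0.75 and 0.37 in unstimulated cells. The states were apart by more than a unit in both genotypes, and Yars2 rose 4.16-fold in CKO and 4.32-fold in WT (limma, adjusted p = 2.60e-10 and 1.10e-10), against 3.21-fold and 2.88-fold for cytosolic Yars. A second Yars2 probe was also higher on all stimulated than on all unstimulated arrays of each genotype, but 3 of 4 CKO and 1 of 4 WT unstimulated arrays had it well above background, so no size is given for it. Rars2, the mitochondrial arginyl enzyme, had 1.09, 0.88, 1.07 and 0.26 in CKO stimulated against -1.17, -1.28, -1.17 and -0.86 in CKO unstimulated cells, and 1.12, 1.96, 1.69 and 1.15 in WT stimulated against -0.07, -0.04, -0.12 and -1.23 in WT unstimulated cells. The states did not overlap, although WT unstimulated replicate 4 lay far below the other 3 WT arrays, and the rise was 1.95 ± 0.26 in CKO and 1.84 ± 0.26 in WT.

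Pars2, the mitochondrial prolyl enzyme, rose by 1.44 ± 0.28 in CKO and 1.44 ± 0.28 in WT. Iars2, Sars2 and Aars2, the mitochondrial isoleucyl, seryl and alanyl enzymes, rose by 0.69, 0.53 and 0.28 in CKO and by 0.68, 0.61 and 0.49 in WT. Vars2, the mitochondrial valyl enzyme, rose by 0.57 ± 0.14 in CKO (adjusted p = 0.00098), while its WT difference of 0.03 ± 0.14 was not called (adjusted p = 0.883). The interaction for Vars2 was 0.55 ± 0.19 and was not called (adjusted p = 0.136). Ears2, the mitochondrial glutamyl enzyme, was the only one of the 35 that fell. It had 0.36, 0.37, 0.22 and 0.16 in CKO stimulated against 0.45, 0.71, 0.57 and 0.80 in CKO unstimulated cells, and 0.28, 0.56, 0.45 and 0.30 in WT stimulated against 0.81, 0.91, 1.01 and 1.18 in WT unstimulated cells. No stimulated array reached an unstimulated one of its genotype, and Ears2 fell by 0.36 in CKO and by 0.58 in WT (limma, adjusted p = 0.0195 and 0.000431).

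The mitochondrial genes nearest to 0 were Vars2 and Cars2 in WT and Mars2 and Nars2 in CKO. Vars2 had 1.35, 1.35, 1.34 and 1.06 in CKO stimulated against 0.89, 0.64, 0.50 and 0.76 in CKO unstimulated cells, and 0.95, 1.18, 1.21 and 1.02 in WT stimulated against 1.22, 1.07, 0.96 and 0.99 in WT unstimulated cells. The states overlapped in WT and did not in CKO. Cars2, the mitochondrial cysteinyl enzyme, had 1.17, 1.04, 1.00 and 0.62 in CKO stimulated against 0.99, 1.08, 1.21 and 1.29 in CKO unstimulated cells, and 1.10, 1.61, 1.46 and 1.10 in WT stimulated against 1.29, 1.12, 1.42 and 1.20 in WT unstimulated cells. Mars2, the mitochondrial methionyl enzyme, had -1.78, -1.94, -1.89 and -1.92 in CKO stimulated against -2.18, -1.95, -2.19 and -1.66 in CKO unstimulated cells, and -1.35, -1.01, -1.06 and -1.29 in WT stimulated against -1.58, -1.35, -1.38 and -1.50 in WT unstimulated cells. For Cars2 the states overlapped in both genotypes, and for Mars2 the stimulated arrays were mostly the higher ones in WT but mixed with the unstimulated ones in CKO. Fars2, Lars2 and Wars2, the mitochondrial phenylalanyl, leucyl and tryptophanyl enzymes, were not called in either genotype, with differences of 0.15, -0.59 and -0.28 in CKO and -0.11, -0.18 and -0.19 in WT.

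On stimulation, other probes of the same genes mostly moved the same way. Of the other kept probes of genes called on stimulation, 23 of 26 in CKO and 26 of 29 in WT had the sign of the probe used, and 18 in each were called themselves. The 3 with the opposite sign were the same in both genotypes, 1 each for Hars, Iars2 and Qars, with differences of -0.25, -0.01 and -0.19 in CKO and -0.35, -0.10 and -0.44 in WT, none of them called. The Qars probe was well above background on 14 of 24 arrays, the Hars probe on all 24 and the Iars2 probe on 22. Probes agreed less in some other comparisons. For CKO against WT, 4 of 7 such probes in unstimulated, 3 of 6 in stimulated cells and 2 of 2 in Treg had the sign of the probe used. For Treg against naive it was 4 of 4 in CKO and 10 of 16 in WT. The second Yars2 probe, partly at background, was called with the opposite sign in unstimulated CKO against WT and in WT Treg against naive.

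Promoter sequence is shown for Aars, Gars, Tars, Iars, Yars2 and Nars2, to let the reader see what lies upstream of them. RefSeq (GRCm38.p6) promoter windows matched 26 of the 35 genes, and the 250 bases before the start were searched on both strands for 4 motifs. The C/EBP-ATF composite element TGATGNAA, the kind of site ATF4 binds, was found in 3 of the 26 genes, Aars, Gars and Tars, and in 3.45% of all 32851 promoter windows of that length. The E-box CACGTG was found in 3 genes, Aars, Farsb and Iars, and in 6.02% of all windows. The palindromic NRF1 motif and the CRE motif TGACGTCA were found in none of the 26 and in 0.782% and 1.55% of all windows. The CRE and composite motifs share letters and can overlap, and a match is a stretch of letters, not a site shown to be bound. Capitals mark the matches. Aars, Gars and Tars hold the composite element on the opposite strand, so its capitals are the reverse complement. Iars holds an E-box, Yars2 is the mitochondrial gene with the largest rise, and Nars2 is the gene described next. The windows are chr8:111033592-111033841 on the plus strand for Aars, chr6:55037751-55038000 on the plus strand for Gars, chr15:11399659-11399908 on the minus strand for Tars, chr13:49681880-49682129 on the plus strand for Iars, chr16:16302715-16302964 on the plus strand for Yars2 and chr7:96951277-96951526 on the plus strand for Nars2.
Aars: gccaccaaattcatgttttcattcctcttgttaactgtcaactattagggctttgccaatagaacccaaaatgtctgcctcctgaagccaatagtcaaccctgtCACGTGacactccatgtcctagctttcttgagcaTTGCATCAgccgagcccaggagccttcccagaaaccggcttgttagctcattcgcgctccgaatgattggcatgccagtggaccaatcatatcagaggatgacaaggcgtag
Gars: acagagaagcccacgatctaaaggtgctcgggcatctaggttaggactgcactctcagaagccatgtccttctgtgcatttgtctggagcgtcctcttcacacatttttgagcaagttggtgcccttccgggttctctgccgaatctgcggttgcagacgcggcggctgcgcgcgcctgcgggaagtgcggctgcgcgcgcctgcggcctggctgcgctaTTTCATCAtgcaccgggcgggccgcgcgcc
Tars: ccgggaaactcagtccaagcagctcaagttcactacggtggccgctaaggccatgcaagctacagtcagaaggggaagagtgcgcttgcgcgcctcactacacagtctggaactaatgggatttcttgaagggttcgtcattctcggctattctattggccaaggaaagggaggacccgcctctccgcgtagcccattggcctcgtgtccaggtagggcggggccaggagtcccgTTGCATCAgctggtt
Iars: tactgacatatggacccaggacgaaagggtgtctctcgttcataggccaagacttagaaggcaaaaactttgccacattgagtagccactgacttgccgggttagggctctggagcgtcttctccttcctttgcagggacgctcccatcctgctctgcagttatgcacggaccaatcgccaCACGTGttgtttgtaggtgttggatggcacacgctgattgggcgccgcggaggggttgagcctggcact
Yars2: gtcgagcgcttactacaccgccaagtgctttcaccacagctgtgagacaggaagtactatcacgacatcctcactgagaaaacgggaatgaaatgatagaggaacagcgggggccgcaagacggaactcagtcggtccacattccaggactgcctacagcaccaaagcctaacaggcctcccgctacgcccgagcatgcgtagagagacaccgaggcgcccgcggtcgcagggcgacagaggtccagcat
Nars2: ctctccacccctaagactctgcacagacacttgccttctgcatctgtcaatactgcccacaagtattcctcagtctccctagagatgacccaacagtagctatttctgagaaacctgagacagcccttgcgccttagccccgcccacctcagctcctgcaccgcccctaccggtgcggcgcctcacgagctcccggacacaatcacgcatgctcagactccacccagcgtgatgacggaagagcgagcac

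The 3 genes with a composite element rose on stimulation by 1.20 (Aars), 1.84 (Gars) and 1.56 (Tars) in CKO and by 1.51, 1.79 and 1.63 in WT, which lies within the range of the cytosolic genes whose windows had no match. Kars, Mars and Eprs, which rose by 2.15, 1.82 and 1.78 in WT, had none of the 4 motifs in these 250 bases.

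Genes that work beside the synthetases were followed from lists of related genes, to be read against the 30.0% (CKO) and 31.8% (WT) of all genes called higher on stimulation. Of 9 scaffold and synthetase-like genes 6 rose on stimulation in each genotype and none fell. Aimp2 and Eef1e1, scaffold proteins of the multisynthetase complex, rose by 3.10 ± 0.39 and 2.65 ± 0.18 in CKO and 2.62 ± 0.39 and 2.61 ± 0.18 in WT. Of 17 partners of mitochondrial translation 15 rose in CKO and 13 in WT, with medians of 0.68 and 0.72, above the medians of the mitochondrial synthetases. Among them Tsfm and Tufm, the mitochondrial elongation factors Ts and Tu, rose by 2.33 and 1.65 in CKO and 1.97 and 1.80 in WT. Of 39 genes of tRNA transcription and maturation 30 rose and 2 fell in CKO, and 33 rose and 2 fell in WT, with medians of 1.31 and 1.37. Pus7, a pseudouridine synthase, rose by 3.13 and 2.81, while Polr3gl, an alternative subunit of RNA polymerase III, fell by 3.01 in CKO and by 3.23 in WT. Of 25 genes of the ATF4 pathway other than synthetases 17 rose and 3 fell in CKO and 18 rose and 5 fell in WT. Asns, asparagine synthetase, and Psat1, an enzyme of serine synthesis, rose by 3.47 and 2.47 in CKO and 3.87 and 2.83 in WT. Ppp1r15a of the same list fell by 3.55 in CKO, the largest difference of the list there, and by 3.48 in WT. Of 7 cytosolic elongation factor genes 5 rose in CKO and 3 in WT, Eif5a the most, by 2.94 and 2.79.

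In Trim28 CKO cells 1 synthetase, Nars2, was several fold higher than in WT in every cell state, while no other synthetase differed by more than 0.80 on the log2 scale. Nars2 encodes the mitochondrial asparaginyl enzyme and lies on chromosome 7. Its levels were 0.09, 0.62, 0.86 and 0.66 in CKO unstimulated cells, against -2.22, -2.50, -2.16 and -2.90 in WT unstimulated cells. After stimulation they were 0.70, 0.32, 0.49 and 0.20 in CKO, against -1.23, -0.98, -1.24 and -1.78 in WT. In Treg they were 0.75, 0.94, 1.20 and 0.95 in CKO, against -2.57, -3.08, -3.00 and -2.74 in WT. All 12 CKO arrays lay above 0 and all 12 WT arrays below -0.9. Nars2 was 8.02-fold higher in CKO than in WT in unstimulated cells (3.00 ± 0.20), 3.33-fold in stimulated cells (1.73 ± 0.20) and 14-fold in Treg (3.80 ± 0.20), with adjusted p (limma) of 1.76e-09, 4.31e-06 and 2.25e-11. Genes called higher were 7.74%, 11.7% and 2.56% of all genes in the 3 comparisons. Within single slides the difference was 2.31 to 3.55, 1.30 to 1.98 and 3.31 to 4.20.

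Nars2 was the only synthetase whose genotype difference changed with stimulation by the test of the interaction. The interaction was -1.27 ± 0.28 (limma, adjusted p = 0.0128), the 1 call among 35 genes, against 3.45% of all genes called, 1.31% lower and 2.14% higher. Stimulation raised the Nars2 signal of this probe in WT, by 1.14 ± 0.20, while the CKO difference was -0.13 ± 0.20 and was not called (adjusted p = 0.583). The interaction of Nars2 was not called after normexp background correction (-0.68, adjusted p = 0.813), with bright-probe scaling (-1.13, adjusted p = 0.0793) or with the mean of both probes (-0.95, adjusted p = 0.0941), the second of which was partly at background in WT. The interaction with cell type was 0.80 ± 0.28 and was not called (adjusted p = 0.243). No synthetase was called in that interaction by limma, 4 of 35 had an unadjusted p below 0.05, and 0.407% of all genes were called, 0.158% lower and 0.249% higher.

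A second Nars2 probe, dimmer than the first, was also higher on every CKO array than on any WT array of the same state. It read -2.04, -1.63, -1.42 and -1.55 in CKO unstimulated against -4.25, -5.51, -4.42 and -5.01 in WT unstimulated cells, and -2.18, -2.53, -1.84 and -2.62 in CKO stimulated against -4.86, -4.60, -4.31 and -5.39 in WT stimulated cells. In Treg it read -1.27, -1.14, -0.66 and -0.81 in CKO against -4.84, -5.03, -4.57 and -5.43 in WT. It was well above background on every CKO array, on 2 of 4 arrays in each naive WT group and on none of 4 in WT Treg, where the CKO signal was at least 10.5-fold higher than the floor of the array. That floor is the lowest signal among probes well above background, or the probe's own signal where higher. Since its WT naive signals lay partly at background, neither the size of its genotype difference nor its response to stimulation in WT is given. In CKO it differed by -0.63 on stimulation, which was not called (adjusted p = 0.0510). Tenm4, the gene listed just before Nars2 on the chromosome, was higher in CKO in stimulated cells by 2.28 ± 0.64 (adjusted p = 0.0148) and differed by 1.13 ± 0.64 in unstimulated cells and 0.23 ± 0.64 in Treg, which were not called (adjusted p = 0.219 and 0.936). Tenm4 was looked up after the Nars2 values had been seen.

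**Figure D3:**
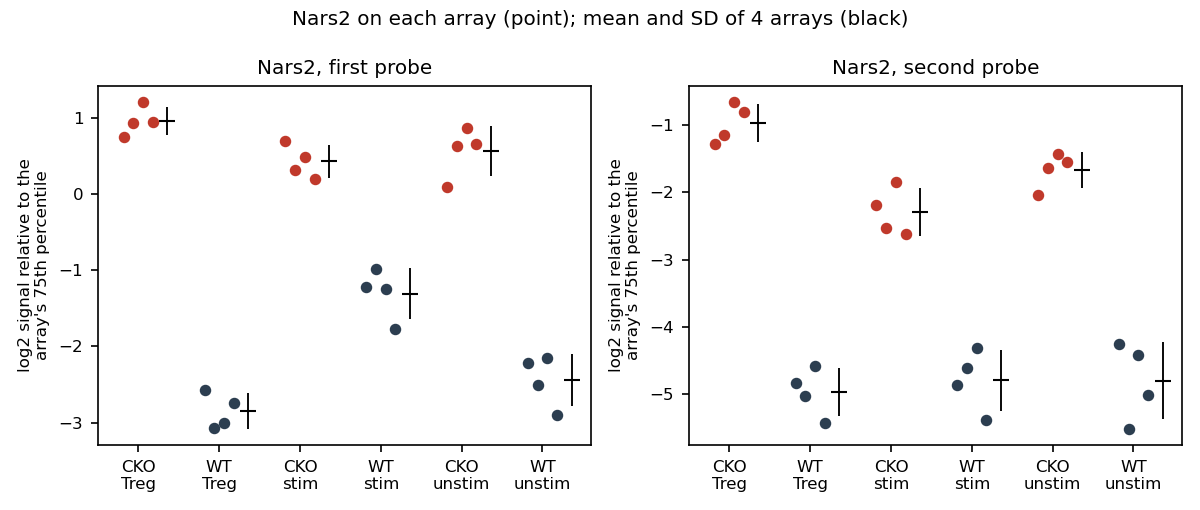
Levels of Nars2 on each of the 24 arrays for its 2 probes (log2 relative to the 75th percentile of the array, points; black, mean and SD of 4 arrays), CKO in red and WT dark. On the brighter first probe the CKO arrays sit between 0.09 and 1.20 and the WT arrays between -3.08 and -0.98. The second probe was well above background on 2 of 4 arrays in each naive WT group and on none of 4 in WT Treg.

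Besides Nars2, 9 synthetases were called lower in unstimulated and 5 in stimulated CKO naive cells, and none higher. In unstimulated cells 5 of 20 cytosolic genes (Gars, Iars, Kars, Mars and Nars) and 4 of 15 mitochondrial genes (Iars2, Pars2, Rars2 and Yars2) fell, against 11.0% of all genes called lower and 18.8% in either direction. In stimulated cells 2 cytosolic genes (Iars and Nars) and 3 mitochondrial genes (Iars2, Pars2 and Yars2) fell, against 12.5% called lower and 24.2% in either direction. Calls in either direction, Nars2 included, made up 28.6% and 17.1% of the 35 genes, the second below the share of all genes in this fit without blocks. The second count rose with slide as a random block, as given below. The genotypes did not overlap for 8 of the 35 genes in unstimulated cells and 14 in stimulated cells, against 20.7% and 25.6% of all genes. The medians were -0.22 (cytosolic) and -0.34 (mitochondrial) in unstimulated cells and -0.33 and -0.34 in stimulated cells, against 0.01 and -0.05 for all genes. With scaling on bright shared probes these medians were -0.02, -0.14, 0.01 and 0.01, against 0.21 and 0.29 for all genes, so the direction in stimulated cells turned with the scaling while both classes stayed below the median of all genes.

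Mars had 0.71, 0.50, 0.05 and 0.24 in CKO unstimulated against 1.32, 1.10, 1.31 and 0.81 in WT unstimulated cells and was 1.69-fold lower (-0.76 ± 0.20, limma, adjusted p = 0.0129), with no overlap. Yars2 had 0.17, -0.00, 0.04 and 0.02 in CKO unstimulated against 0.63, 0.91, 0.75 and 0.37 in WT unstimulated cells, with no overlap. It fell by 0.61 in unstimulated and by 0.66 in stimulated cells (limma, adjusted p = 0.00969 and 0.00391). Its second probe did not show this, and its levels were higher in CKO than in WT unstimulated cells, but it was well above background on 3 of 4 CKO and only 1 of 4 WT unstimulated arrays, so nothing is read from its size. In stimulated cells, where it was well above background on all 8 arrays, it differed by 0.64 ± 0.32 and was not called (adjusted p = 0.151). Nars, the cytosolic asparaginyl enzyme and the counterpart of Nars2, had 1.91, 1.70, 1.52 and 1.79 in CKO unstimulated against 2.28, 2.11, 2.25 and 2.12 in WT unstimulated cells, and 3.25, 3.12, 3.02 and 3.18 in CKO stimulated against 3.47, 3.65, 3.47 and 3.56 in WT stimulated cells. Nars fell by 0.46 and by 0.40 (adjusted p = 0.0263 and 0.0431), opposite in sign to Nars2, and its groups did not overlap in either state.

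Iars had -0.49 in unstimulated and -0.47 in stimulated cells, but another Iars probe, well above background on all arrays, read 0.24 in unstimulated and -0.30 in stimulated cells, neither of them called (adjusted p = 0.317 and 0.201). Iars2 had -0.03, -0.41, -0.52 and -0.37 in CKO unstimulated against 0.23, 0.20, -0.11 and -0.07 in WT unstimulated cells, and 0.46, 0.33, 0.37 and 0.27 in CKO stimulated against 0.69, 0.89, 0.64 and 0.75 in WT stimulated cells. The groups overlapped in unstimulated cells and not in stimulated cells, and Iars2 fell by 0.39 in both (adjusted p = 0.0221 and 0.0192), while another probe, well above background on 3 of 4 arrays of each stimulated group, read 0.40 there (adjusted p = 0.574). Pars2 had -2.44, -2.35, -2.86 and -2.32 in CKO unstimulated against -1.69, -1.25, -1.32 and -2.52 in WT unstimulated cells, and -0.68, -0.98, -0.85 and -1.67 in CKO stimulated against 0.01, -0.02, -0.33 and -0.67 in WT stimulated cells. WT unstimulated replicate 4 fell among the CKO arrays, and the adjusted p was 0.0497 in unstimulated and 0.0427 in stimulated cells for differences of -0.80 ± 0.28 and -0.79 ± 0.28. Gars, the glycyl enzyme, had -1.63, -1.10, -1.19 and -1.02 in CKO unstimulated against -0.60, -0.45, -0.14 and -1.08 in WT unstimulated cells, with overlap. That same WT array carried the lowest WT unstimulated value of Gars, Kars and Rars2, which differed by -0.67 ± 0.23, -0.62 ± 0.19 and -0.76 ± 0.26 in unstimulated cells with adjusted p of 0.0472, 0.03 and 0.0456.

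The count of 10 calls in unstimulated cells, Nars2 included, was 3, 4 and 4 without WT replicate 1, 2 or 3 and 6, 4 and 2 without CKO replicate 1, 2 or 3. Without WT replicate 4 it was 14. Calls over all genes moved as well, from 1274 higher and 1818 lower in the main fit. They were 972 and 1311, 636 and 755, and 686 and 917 without WT replicate 1, 2 or 3. Without WT replicate 4 they were 2191 and 2421. They were 912 and 1359, 677 and 908, and 708 and 954 without CKO replicate 1, 2 or 3. The count of 6 in stimulated cells was 2 and 3 without WT replicate 2 or 3 and 3 without CKO replicate 2. It was 7 without WT replicate 1. Calls over all genes were then 1234 higher and 1152 lower without WT replicate 2 and 1646 and 1349 without WT replicate 3. They were 1222 and 1286 without CKO replicate 2 and 1482 and 1702 without WT replicate 1. With slide as a random block the count in stimulated cells was 10, and calls over all 16463 genes also rose, to 2213 higher and 2404 lower. The main fit called 1920 higher and 2056 lower. Within single slides the cytosolic median was below 0 in all 4 slides of each state, from -0.51 to -0.21 in unstimulated and from -0.46 to -0.21 in stimulated cells. The mitochondrial median ran from -0.42 to 0.02 and from -0.28 to 0.07. The B cell marker sums given above were higher in CKO than in WT naive cells in both states, with overlap of single arrays. Those of the T cell markers were lower in CKO, without overlap in unstimulated and with overlap in stimulated cells. The part of either in the genotype differences of the synthetases was not tested. Of 39 genes of tRNA transcription and maturation 8 fell in unstimulated and 12 in stimulated CKO cells, with none and 1 higher, against 11.0% and 12.5% of all genes called lower.

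**Figure D4:**
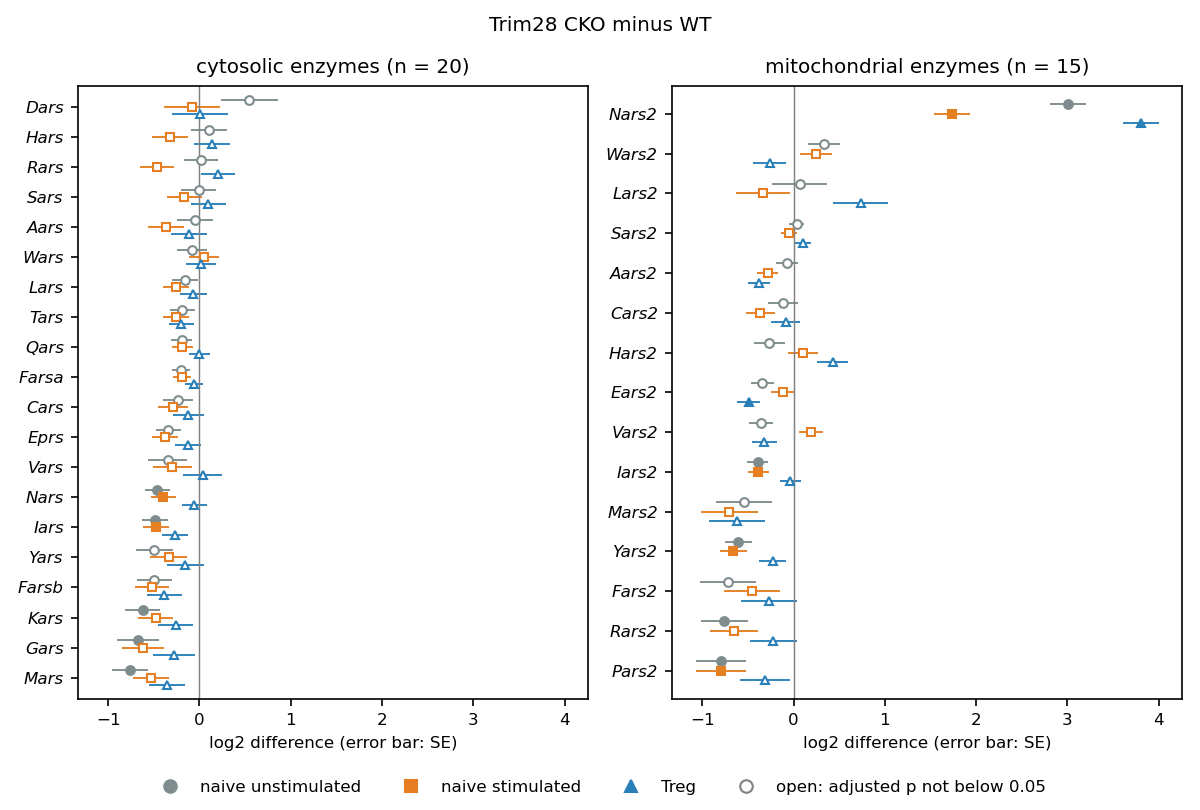
Log2 difference of CKO minus WT for each gene in unstimulated naive cells (grey circles), stimulated naive cells (orange squares) and Treg (blue triangles), with SE; open symbols were not called. Nars2 stands at 3.00, 1.73 and 3.80, and the other genes lie between -0.80 and 0.73. With scaling on bright shared probes the cytosolic median in stimulated cells is 0.01 instead of -0.33.

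In Treg only Nars2, higher, and Ears2, lower, were called between genotypes, against 4.40% of all genes (1.83% called lower). The genotypes did not overlap for 3 of the 35 genes, against 8.33% of all genes. Ears2 had -0.49, -0.43, -0.47 and -0.05 in CKO Treg against 0.16, -0.12, 0.15 and 0.32 in WT Treg and fell by 0.49 (limma, adjusted p = 0.026), with an overlap of single arrays. Ears2 was not called without CKO Treg replicate 1, 2 or 3 or without WT Treg replicate 1, 3 or 4, and in all of these but the last Nars2 was the 1 call left. No cytosolic gene was called by limma and none had an unadjusted p below 0.05, with a median of -0.09 (0.03 after normexp background correction). Lars2, the mitochondrial leucyl enzyme, had 12.36, 11.72, 11.46 and 11.13 in CKO Treg against 10.45, 10.57, 11.05 and 11.67 in WT Treg, a difference of 0.73 ± 0.30 that was not called (adjusted p = 0.235).

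On the scale used here the class medians of the synthetases were lower in Treg than in unstimulated naive cells. Calls in either direction made up 28.6% of the 35 genes in CKO, near the share of all genes, and 60% in WT. If the treatment label of the CKO Treg samples holds, cell type and stimulation cannot be told apart in the CKO comparison. In CKO, 4 of 20 cytosolic and 5 of 15 mitochondrial genes were lower and Lars2 was higher, against 16.5% of all genes called lower, 11.7% called higher and 28.3% in either direction. In WT, 11 cytosolic and 10 mitochondrial genes were lower and none higher, against 29.9%, 18.8% and 48.7%. The cell types did not overlap for 9 of the 35 genes in CKO and 14 in WT, against 31.0% and 35.1% of all genes. The medians were -0.28 (cytosolic) and -0.23 (mitochondrial) in CKO and -0.39 and -0.55 in WT, against -0.07 and -0.10 for all genes. With scaling on bright shared probes the WT calls became 5 higher and 3 lower of 35, against 6337 higher and 1292 lower of all 16463 genes. The medians were then -0.01 and 0.05 in CKO and 0.10 and -0.05 in WT, against 0.21 and 0.40 for all genes. The signs of the mitochondrial median in CKO and the cytosolic median in WT thus turned with the scaling, and the other 2 medians lay close to 0. Most Treg arrays were also dimmer than the naive arrays, and the part of this in the differences was not tested.

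Genes called lower in both genotypes were Lars, Mars, Nars, Yars, Aars2, Ears2, Mars2, Pars2 and Sars2. Pars2 had -3.10, -3.96, -3.77 and -2.84 in CKO Treg against -2.44, -2.35, -2.86 and -2.32 in CKO naive cells, and -3.06, -3.24, -3.01 and -3.12 in WT Treg against -1.69, -1.25, -1.32 and -2.52 in WT naive cells. The cell types overlapped in CKO and not in WT. Pars2 fell by 0.93 in CKO and by 1.41 in WT, and its difference after normexp background correction was 0.42 and 0.08. Sars2, the mitochondrial seryl enzyme, had 0.18, 0.21, 0.23 and 0.27 in CKO Treg against 0.85, 0.58, 0.76 and 0.80 in CKO naive cells, and 0.18, 0.17, 0.02 and 0.13 in WT Treg against 0.74, 0.64, 0.72 and 0.75 in WT naive cells. The cell types did not overlap in either genotype, and Sars2 fell by 0.52 and by 0.59 (limma, adjusted p = 0.000128 and 2.20e-05). Mars fell by 0.77 and by 1.17, and Ears2 by 0.99 and by 0.85. Aars2 fell by 0.85 in CKO and by 0.55 in WT, with no overlap of the cell types in either genotype. Lars2 rose by 1.19 ± 0.30 in CKO (adjusted p = 0.006) and differed by 0.52 ± 0.30 in WT, which was not called (adjusted p = 0.157). Only 1 probe read Lars2, and its group means of 9.90 to 11.67 lay far above those of every other mitochondrial gene (at most 2.78). Its highest Treg levels, 12.36 in CKO and 11.67 in WT, were on the dimmest Treg array of each genotype (75th percentile 32.6 and 55.6). The part of array brightness in the Lars2 difference was not tested. Its interaction with genotype was 0.67 ± 0.42 (adjusted p = 0.482). Yars2 fell by 0.68 in WT on the brighter probe, and the second was well above background on 2 of 4 WT Treg and 1 of 4 WT naive arrays, too few to compare. A second Farsa probe, well above background on all arrays, read 0.68 in WT against -0.31 for the one used, and was not called (adjusted p = 0.0776). The count of 10 calls in CKO was 6 without CKO Treg replicate 2 or replicate 3.

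**Figure D5:**
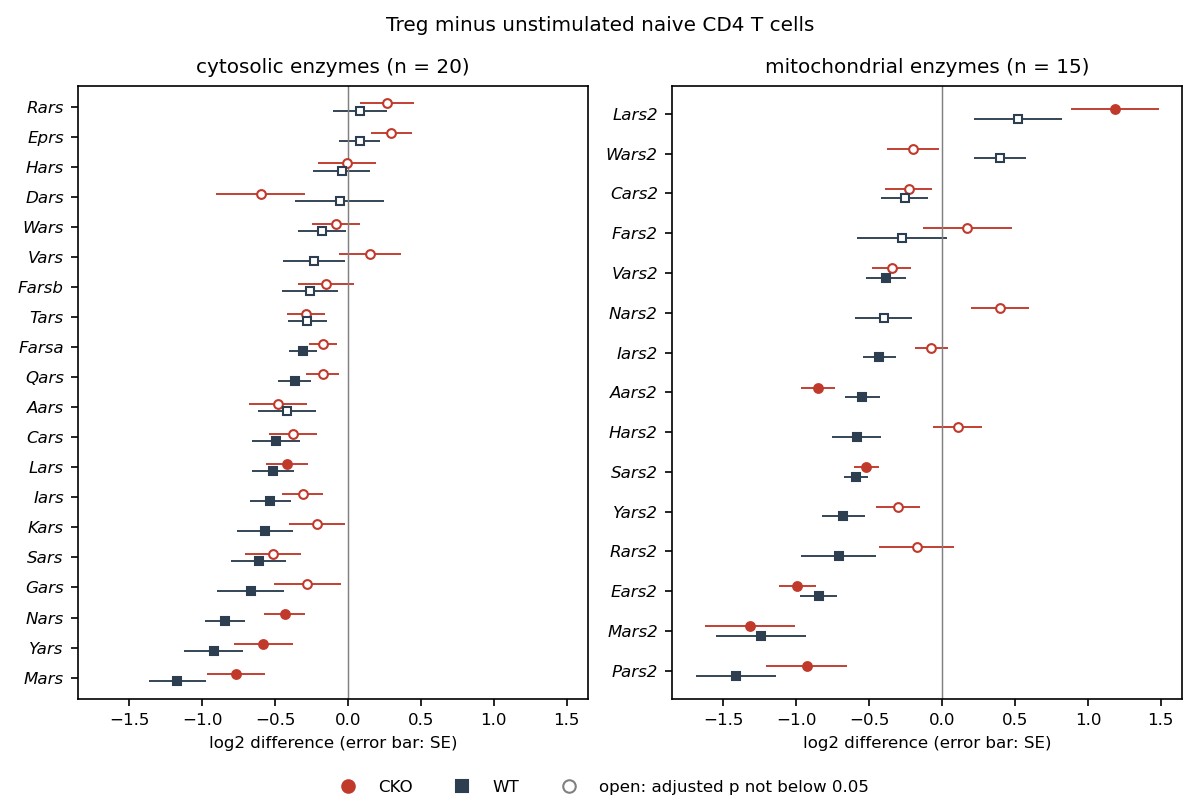
Log2 difference of Treg minus unstimulated naive cells for each gene, CKO (red circles) and WT (dark squares), with SE; open symbols were not called. Most genes lie below 0 on the 75th percentile scale, and Lars2 is at 1.19 in CKO and 0.52 in WT. With scaling on bright shared probes the cytosolic median in WT is 0.10 instead of -0.39.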

How the data were processed

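The values are gProcessedSignal, an intensity of 1-colour (Cy3) Agilent arrays that was background-subtracted and detrended within each array by Feature Extraction 9.5, per the file headers and the submitters' processing notes. The deposited series table, also an intensity, was used as an alternative; its scale is linear, its columns share 1 distribution, and the authors' method is not given in the sources used here. Signals were divided by the 75th percentile of their array and turned into log2 values here. Control spots and outlier-flagged spots were left out, and 25198 of 41174 probes were kept (well above background on at least 3 of 4 arrays of a group). The brightest kept probe stood for each of 16463 genes, named through RefSeq accessions and synonyms where the files' names were old. limma 3.58.1 in R 4.3.3 (lmFit, eBayes, two-sided) was fitted to 6 group means, with Benjamini-Hochberg adjustment over all genes and a threshold of 0.05. The fit was tested on simulated data. The number of arrays limits the precision.

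The members and lists were chosen with earlier results of these data known. Named with values on every array were the 6 called members with the largest difference on stimulation, members called between genotypes or in an interaction, members whose probes disagreed, and the 2 of each class nearest 0; of each partner list at most 4 called genes with the largest difference. Alternatives were other scalings, normexp background correction, the authors' normalized values, no dim-probe filter, the mean of a gene's probes, fits of the compared arrays only, replicate and slide blocks, names as in the files, and leaving out each array. Slide as a fixed block, the files' names and within-slide differences were added after seeing the data. Replicate numbers are shared between groups but no label says that they pair samples.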

Additional observations from a re-analysis of the deposited data

Results flagged for a closer look

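In 17 of 209 sets of 4 arrays (1 synthetase in 1 group) a single array stood apart from the other 3 by Dixon's criterion, which chance meets in about 1 of 20 sets. Among CKO unstimulated arrays, Kars was 1.93 on replicate 4 (others 1.20 to 1.25) and Hars 1.97 on replicate 1 (others 1.50 to 1.57). Among CKO stimulated arrays, Farsb was 0.66 on replicate 3 (others 0.17 to 0.23), Iars 3.64 on replicate 4 (others 3.84 to 3.88) and Vars2 1.06 on replicate 4 (others 1.34 to 1.35). Among CKO Treg arrays, Farsb was -2.34 on replicate 3 (others -1.78 to -1.68), Sars 4.40 on replicate 3 (others 4.78 to 4.85), Cars2 0.57 on replicate 2 (others 1.00 to 1.08) and Ears2 -0.05 on replicate 4 (others -0.49 to -0.43).

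WT unstimulated replicate 4 held 4 such values: Rars2 at -1.23 (others -0.12 to -0.04), Hars2 at -3.03 (others -2.62 to -2.55), Sars at 5.63 (others 5.05 to 5.13) and Farsa at 2.56 (others 2.30 to 2.34). Cars was 3.21 on WT stimulated replicate 1 (others 3.07 to 3.09). Among WT Treg arrays, Kars was 1.92 on replicate 1 (others 1.26 to 1.36), Tars 3.03 on replicate 1 (others 2.77 to 2.79) and Cars2 0.58 on replicate 2 (others 1.09 to 1.17). Nars2 had a genotype difference that changed with stimulation, with an interaction of -1.27.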

How the results depend on the processing

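The Nars2 difference between genotypes was called in all 3 cell states under every alternative run, and the counts on stimulation stayed within 1.5 times of 27 (CKO) and 28 (WT). Leaving out 1 array at a time gave 25 to 28 calls on stimulation in CKO, 27 to 28 in WT, 2 to 14 for CKO against WT unstimulated, 2 to 7 stimulated, 1 to 2 in Treg, 6 to 12 for Treg against naive in CKO, 16 to 23 in WT, 1 in the stimulation interaction and 0 in the cell type interaction. The 10 calls for CKO against WT unstimulated became 2 with bright-probe scaling or normexp, 3 without the dim-probe filter and 3 with only the compared arrays. Calls over all genes went from 1274 higher and 1818 lower to 2115 and 665 with bright-probe scaling and 169 and 241 with normexp. They were 799 and 1037 of 27621 without the filter and 695 and 1068 with only the compared arrays. The 6 stimulated calls became 2 with quantile normalization, the authors' values or no filter, and 3 with bright-probe scaling or normexp. Over all genes, 1920 higher and 2056 lower became 1444 and 929 with quantile normalization and 1444 and 925 with the authors' values. They became 1310 and 1220 of 27621 with no filter, 4013 and 519 with bright-probe scaling and 404 and 1016 with normexp. The 2 Treg calls became 1 with bright-probe scaling, normexp, no filter, the mean of probes, only the compared arrays or the files' names. All genes had 422 higher and 302 lower in the main fit. These became 391 and 314 with bright-probe scaling, 72 and 10 with normexp and 347 and 182 of 27621 with no filter. With the mean of probes they became 429 and 282, with only the compared arrays 263 and 109, and with the files' names 426 and 302 of 16643. For Treg against naive, 21 WT calls became 8 with bright-probe scaling, and 10 CKO calls became 18 with normexp and 6 with only the compared arrays. In WT, 3095 higher and 4918 lower over all genes became 6337 and 1292. In CKO, 1930 higher and 2721 lower over all genes became 5005 and 3928 with normexp and 1974 and 2201 with only the compared arrays. The 1 interaction call became 0 with bright-probe scaling, normexp or the mean of probes. Over all genes, 352 higher and 216 lower in that interaction became 426 and 138, 33 and 41, and 346 and 243. With the replicate block the stimulated calls between genotypes became 11, and with slide as a random block 10. The block moved no other count by more than 1.5 times. Over all genes these stimulated calls became 2373 higher and 2517 lower with the replicate block and 2213 and 2404 with the slide block. Deviations of same-numbered arrays correlated from -0.31 to 0.545, so the numbers were not taken to pair samples, although 19 of 24 arrays correlated best with their own number.

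Some single differences changed sign. With the mean of probes, CKO against WT became 0.17 for Iars and 0.039 for Iars (stimulated and unstimulated) and 0.17 for Yars2 (unstimulated), and Treg against naive in WT became -0.29 for Eprs, 0.44 for Hars, 0.25 for Iars and 0.42 for Yars2. With normexp, Treg against naive became 0.29 for Mars2 and 0.42 for Pars2 in CKO, and 0.61 for Hars2, 0.060 for Mars2, 0.58 for Nars2 and 0.078 for Pars2 in WT. With bright-probe scaling the WT values became 0.18 for Farsa, 0.45 for Hars, 0.064 for Iars2, 0.13 for Qars and 0.11 for Vars2, and Qars became 0.025 with quantile normalization and 0.023 with the authors' values. The share of called genes that were higher, over all genes, went with bright-probe scaling to 76.1% (41.2% before) for CKO against WT unstimulated, 88.5% (48.3%) stimulated, 37.4% (49.8%) for stimulation in CKO, 34.3% (51.3%) in WT, 73.3% (41.5%) for Treg against naive in CKO and 83.1% (38.6%) in WT. The mean of probes takes in probes near background for Iars and Yars2 (well above it on 10 and 15 of 24 arrays). The causes were not tested otherwise. Dim signals on the Treg arrays limit the precision there.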
